A study of Mus musculus with 14 samples.

Results

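Cells keep their ion gradients, their acid compartments and the lipid asymmetry of their membranes with pumps that burn ATP, and the genes of these pumps were followed here in the cortex of mice lacking Fmr1. The members were the genes of the deposited table whose symbols begin with Atp1a, Atp1b, Atp2a, Atp2b, Atp2c, Atp6v, Atp6ap, Atp7, Atp8, Atp9, Atp10, Atp11 or Atp13. This gave 65 of the 23412 genes: 39 P-type pumps, flippases and their beta subunits, 25 subunits of the vacuolar ATPase (V-ATPase), and the pseudogene Atp6v0c-ps2. The rule reads symbols only and no measured value, although this set of genes was picked with earlier results of these data known. In the knock-out (KO), footprints of P-type members lay more often below than above control, and footprints of V-ATPase members more often above. In RNA, 4 of 53 tested members were past the threshold, and the medians of both groups lay on the opposite side of 0 from their footprint medians.

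P-type ATPases pass a phosphate from ATP to themselves while they move an ion across a membrane, and in neurons the sodium-potassium pump pays for the recovery after each action potential. The P4 branch of the same family moves phospholipids instead of ions from the outer to the inner leaflet, which gives its members the name flippases. The V-ATPase is a rotary machine in which the cytosolic V1 part splits ATP and the membrane-embedded V0 part carries protons, and it acidifies lysosomes and energises the filling of synaptic vesicles. FMRP, the product of Fmr1, is an RNA-binding protein of neurons that is known to restrain translation of many brain mRNAs.

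Both genotypes carried Rpl22flox/flox with CamKCre+, so the Cre allele and the floxed ribosomal protein allele were shared, and the source is named CAMKIIa-Ribotag mouse brain. Controls had this genotype alone and KO mice carried Fmr1X-Y as well. RNA-seq of cortex used mice 1, 3, 6 and 8 as controls and mice 2, 4, 5 and 7 as KO, and ribosome profiling, which sequences the mRNA pieces shielded by ribosomes (footprints) used control mice 1, 3 and 9 with KO mice 2, 4 and 10. The protocols describe whole lysates and monosomes from a sucrose gradient and name no capture of tagged ribosomes, and the labels give neither age nor strain. CPM are each gene's counts relative to its library's total, adjusted with edgeR's TMM factors, SD is the spread over mice, and a gene is called when its edgeR adjusted p, taken over all genes tested, is under 0.05. Fold changes are log2 values of KO minus control with their standard error (SE).

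Total counts ran from 8847547 to 11371851 per RNA library and from 4124065 to 6033030 per footprint library, and members held 1.88 to 2.14% of the RNA counts and 2.66 to 2.73% of the footprint counts. Fmr1 followed the labels, at 83.0 ± 8.37 CPM in control RNA (SD, n = 4) against 21.7 ± 2.40 in KO RNA (SD, n = 4). The RNA libraries of KO mice 2, 4 and 7 were close to each other, with a chi-square of their counts, divided by its degrees of freedom, of 1.18 to 1.32, where other RNA pairs within a genotype reached 11.8. Footprint pairs within a genotype lay at 1.15 to 1.42. The p-values measure the spread between these libraries, which the labels number as separate mice. Whether the RNA of KO mice 2, 4 and 7 came from independent preparations was not tested, so the SD over 4 KO mice may understate the spread between animals. The same holds for control RNA of mice 1 and 3, at 1.99, and for all footprint pairs within a genotype. Summed CPM of 8 excitatory neuron markers, all detected, were 2306 to 2652 in control RNA and 2866 to 3187 in KO RNA, but 4619 to 4710 in control footprints and 4356 to 4490 in KO footprints. Single markers did not all follow the sums: 5 of the 8 had a positive and 3 a negative log2 change in RNA (median 0.09), and 4 and 4 in footprints (median -0.01). Summed CPM of 8 oligodendrocyte markers were 5224 to 5749 in control RNA and 4666 to 4977 in KO RNA, with 8873 to 9030 in control and 8751 to 8800 in KO footprints, where 5 of the 8 markers had a positive and 3 a negative log2 change (median 0.04). Summed CPM of 7 inhibitory neuron markers were 1640.0 to 1684 in control and 1713 to 1738 in KO footprints, with 4 positive and 3 negative (median 0.02). The 6 choroid plexus markers ranged from 10.4 to 283 in control RNA and from 7.06 to 121 in KO RNA, and from 13.1 to 16.5 in control and 6.66 to 11.7 in KO footprints. Summed CPM of 9 astrocyte markers were 6417 to 6503 in control and 6382 to 6412 in KO footprints, with 2 positive and 7 negative (median -0.05). In RNA these sums overlapped, at 3772 to 4210 in control and 3927 to 4737 in KO for astrocytes. Inhibitory neuron markers overlapped in RNA as well, at 827 to 860 in control and 828 to 965 in KO. Sums of microglia, endothelium and pericyte markers overlapped between genotypes in both assays. The part of these differences in the results on members was not tested. In these bulk samples fewer cells of a type and less RNA per cell cannot be told apart.

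Of the 64 members with values in the columns used, 53 passed the low-count filter in RNA and 47 in footprints. The 11 members left out in RNA were Atp1a4, Atp1b4, Atp2a1, Atp6v0a4, Atp6v0d2, Atp6v1b1, Atp6v1e2, Atp6v1g3, Atp8b3, Atp8b4 and Atp8b5, none above 1.11 CPM in any RNA library. Several of these are isoforms known from other tissues, such as the testis subunit Atp1a4, the skeletal muscle pump Atp2a1 and the kidney subunits Atp6v0a4 and Atp6v1b1. Footprints of Atp2c2, Atp7b, Atp8b1, Atp10a, Atp10b and Atp10d were also too few to test.

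In footprints, 24 of 47 tested members were called, 10 higher and 14 lower in KO. Of all 12158 genes tested, 25.5% were called, 11.9% higher and 13.6% lower, and where the mean reached 100 CPM the share called was 56.0%. At that level 21 of 27 members were called, and below it 3 of 20. The members below it were not set against all genes at the same level. The direction differed by machine: P-type members and beta subunits had 2 called higher and 11 lower among 27 tested, with a median log2 change of -0.07. V-ATPase members had 8 called higher and 3 lower among 20, with a median of 0.09, and the median of all genes tested was 0.01. On plain library sizes the split was 13 higher and 6 lower, with 2 higher and 5 lower among P-type members and 11 higher and 1 lower among V-ATPase members, and over all genes 2284 were higher and 1163 lower. A single fit over all 14 libraries called 5 members, 2 higher and 3 lower, of which 1 was a V-ATPase member, and 13.8% of all genes tested. The libraries of the genotypes did not overlap in 26 of the 47 tested members, and in 37.3% of all genes tested.

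**Figure D1:**
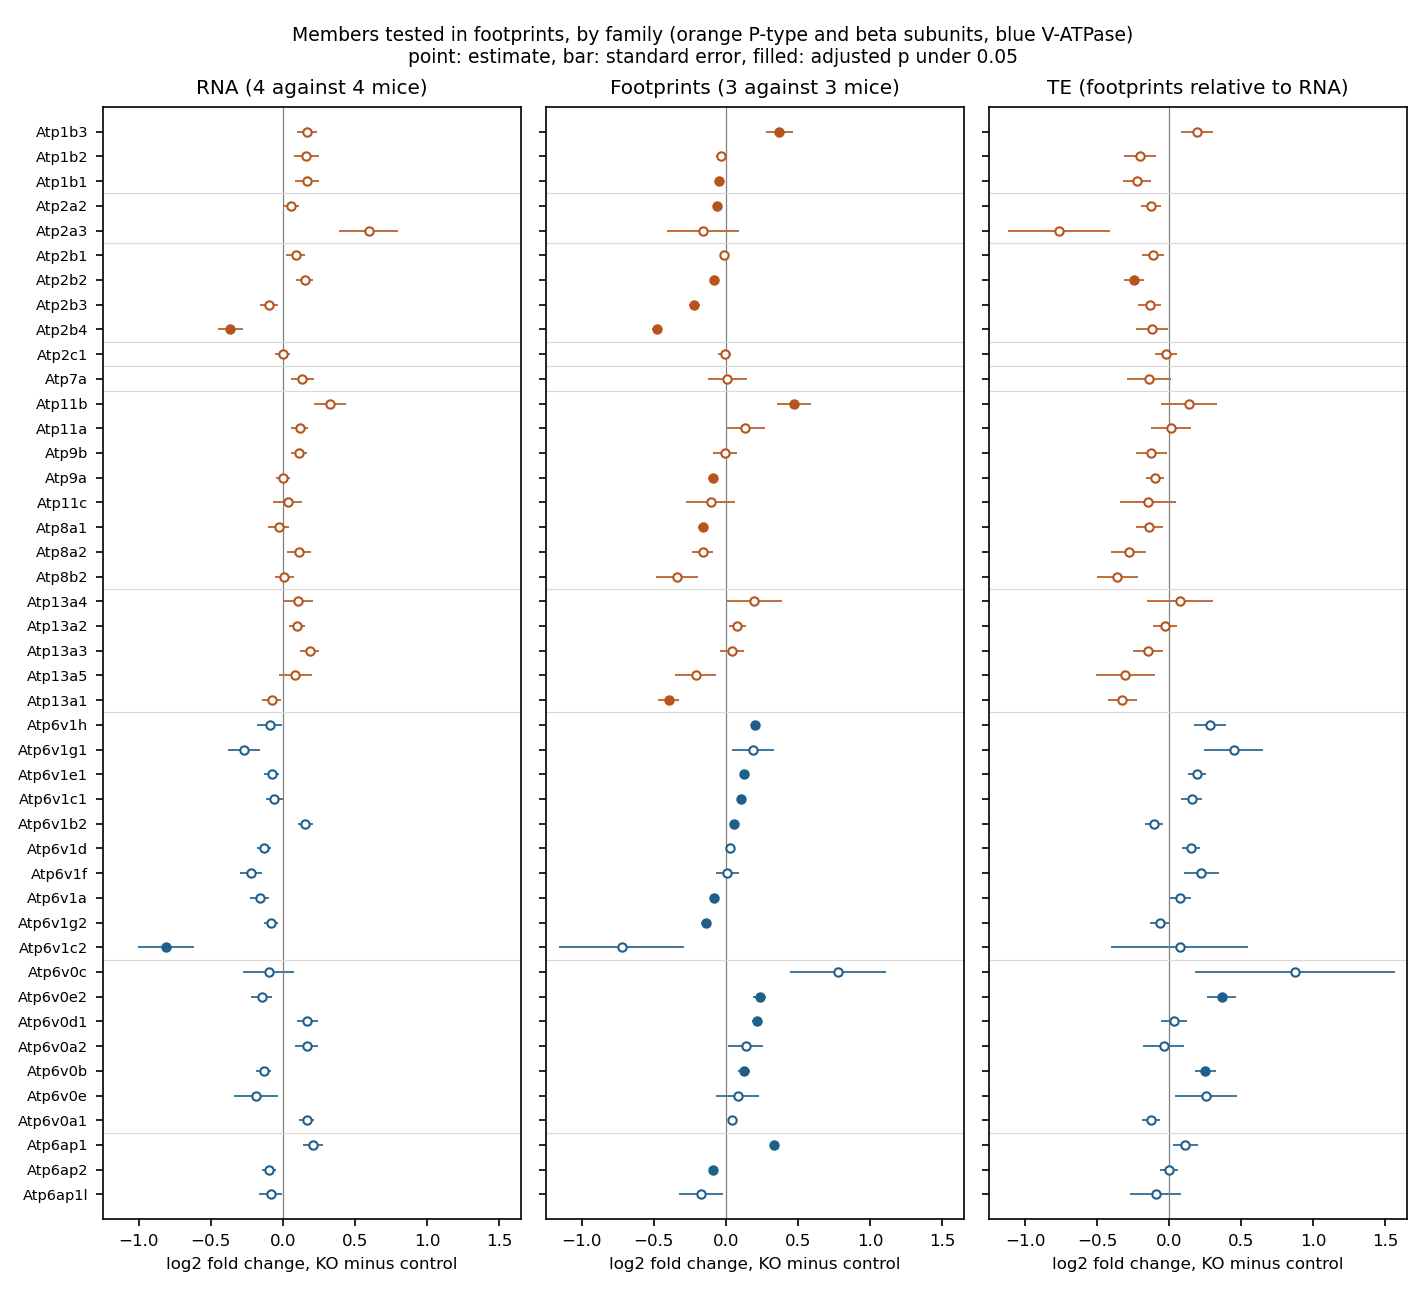
The log2 fold change of KO minus control is plotted on the x axis for RNA, footprints and translational efficiency (TE, footprints relative to RNA), for 44 members tested in footprints, grouped by family. Points are estimates, bars are standard errors and filled points have an adjusted p under 0.05. Most orange P-type points lie left of 0 in footprints and most blue V-ATPase points lie right of 0, and few points are filled in RNA and TE.

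The beta subunits of the sodium-potassium pump, which bring its catalytic part to the membrane, did not move together. Atp1b3 footprints rose, from 34.5, 31.3 and 32.1 CPM in control to 40.9, 45.3 and 39.9 CPM in KO mice, a log2 change of 0.37 ± 0.10 (SE, edgeR adjusted p = 0.00172). Atp1b1 footprints were called lower, with 3291, 3318 and 3347 CPM in control against 3188, 3245 and 3179.8 CPM in KO mice, a change of -0.05 ± 0.02 (SE, edgeR adjusted p = 0.0323). That call held under 8 of 14 alternatives, was weaker in 5 and reversed in 1, where plain library sizes gave 0.0086 (edgeR adjusted p = 0.774). Atp1b2, a beta subunit of glia, had 442 ± 9.56 CPM in control and 432 ± 21.7 in KO footprints (SD, n = 3), with overlapping libraries. Atp1b1 shares its locus with Nme7 in RefSeq, and whether the counting used strand is not given in the sources used here.

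Calcium pumps of the plasma membrane (PMCA), which expel calcium after activity, held the largest fall among called members in footprints. Atp2b4 footprints fell from 400.2, 381 and 409.9 CPM in control mice to 289, 292 and 275 CPM in KO mice, a log2 change of -0.48 ± 0.03 (SE, edgeR adjusted p = 1.45e-21). Its RNA was 448, 437, 399 and 379.8 CPM in control mice 1, 3, 6 and 8 and 298, 298, 394 and 302 CPM in KO mice 2, 4, 5 and 7. The RNA change was -0.37 ± 0.09 (SE, edgeR adjusted p = 0.0217), but KO mouse 5 lay inside the control range, and within mice 5 to 8 alone the change was -0.16 (edgeR adjusted p = 0.576). Atp2b4 was the only member called in both RNA and footprints, lower in each.

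The other PMCA genes fell less or did not pass. Atp2b3 footprints were 257, 245 and 249.9 CPM in control and 210.2, 218 and 217 CPM in KO mice, without overlap, a log2 change of -0.22 ± 0.04 (SE, edgeR adjusted p = 5.31e-06). Atp2b2, the isoform abundant in cerebellum and hair cells, had 1154, 1162 and 1166 CPM in control and 1099, 1094 and 1088 CPM in KO footprints, a change of -0.09 ± 0.02 (SE, edgeR adjusted p = 0.00225). Atp2b1, the general housekeeping isoform, had 1038 ± 31.6 CPM in control and 1026 ± 18.3 in KO footprints (SD, n = 3), and its libraries overlapped.

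Of the calcium and copper pumps of inner membranes, Atp2a2 was called in footprints. Atp2a2, the pump that refills the endoplasmic reticulum with calcium (SERCA2), had 1923, 1866 and 1874 CPM in control and 1802, 1816 and 1804 CPM in KO footprints, a log2 change of -0.06 ± 0.02 (SE, edgeR adjusted p = 0.0167), and 5 of 14 alternatives lost this call (on plain library sizes -0.0029, edgeR adjusted p = 0.94). Atp2a3, its minor relative, was not called in any comparison, though its RNA was 5.76 ± 1.27 CPM in control and 8.61 ± 2.33 CPM in KO mice (SD, n = 4, edgeR adjusted p = 0.0876). Atp2c1, which loads the Golgi with calcium and manganese, was not called, with 193 ± 12.9 CPM in control and 191 ± 2.0 CPM in KO footprints (SD, n = 3). The copper pump Atp7a had 18.8 ± 2.87 CPM and 18.7 ± 0.534 CPM of footprints (SD, n = 3).

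Among flippases, 1 rose and 2 fell of 8 tested in footprints. Atp11b, a flippase of endosomes, had the largest rise of all called members: 21.3, 20.4 and 22.7 CPM in control against 30.2, 28.1 and 31.1 CPM in KO footprints, a log2 change of 0.47 ± 0.12 (SE, edgeR adjusted p = 0.000831). Its RNA was 93.6 ± 17.3 CPM in control and 117 ± 11.5 in KO mice (SD, n = 4), a change of 0.33 ± 0.11 that did not pass (SE, edgeR adjusted p = 0.0833). Atp8a1, which moves phosphatidylserine and phosphatidylethanolamine, fell from 494, 519 and 477 CPM to 453, 451 and 429.7 CPM in footprints, a change of -0.16 ± 0.03 (SE, edgeR adjusted p = 1.94e-05). Atp9a, a flippase of recycling endosomes, had 334, 339 and 356 CPM in control and 321, 325 and 323 CPM in KO footprints, a change of -0.09 ± 0.03 (SE, edgeR adjusted p = 0.0474), and this call held under 4 of 14 alternatives. Tmem30a (CDC50A), the partner that many P4 flippases, Atp8a1 and Atp11b among them, need to leave the endoplasmic reticulum, rose in footprints from 390.2 ± 8.33 to 429 ± 15.9 CPM (SD, n = 3), a change of 0.14 ± 0.03 (SE, edgeR adjusted p = 0.000459).

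Of the P5 pumps, 1 of 5 was called in footprints. Atp13a1, which pulls misplaced membrane segments out of the endoplasmic reticulum, fell from 69.3, 75.1 and 74.2 CPM in control to 53.7, 60.2 and 52.7 CPM in KO footprints, a log2 change of -0.40 ± 0.07 (SE, edgeR adjusted p = 1.01e-05). Its RNA had 70.8 ± 2.84 CPM in control and 67.1 ± 4.57 in KO mice (SD, n = 4, edgeR adjusted p = 0.515). Atp13a2, the lysosomal polyamine exporter mutated in a form of inherited parkinsonism, had 107, 104 and 113 CPM in control and 111, 111 and 120.1 CPM in KO footprints, which overlapped.

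**Figure D2:**
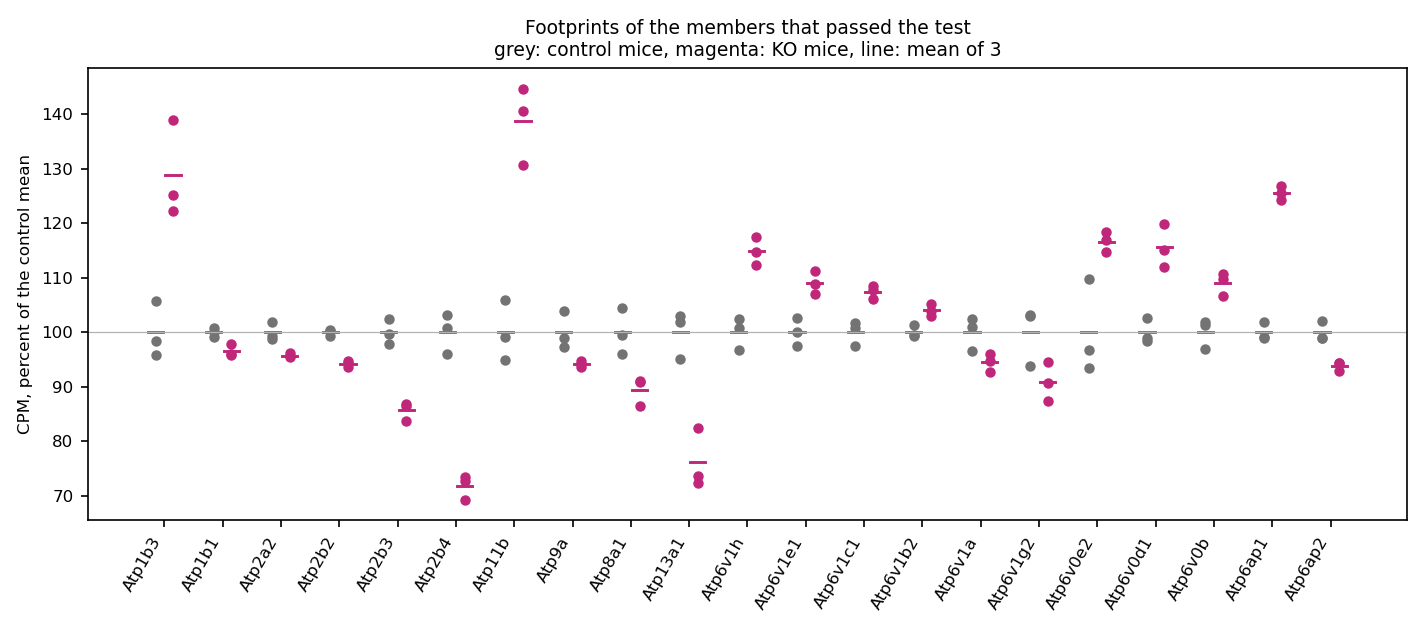
Footprint CPM of 21 called members are plotted in each library as a percentage of the gene's control mean, with the members on the x axis in family order. Grey points are the 3 control mice, magenta points the 3 KO mice and lines their means. The genotypes overlap only in Atp6v1g2.

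The V-ATPase pattern ran the other way. In footprints all 7 tested V0 subunits had a positive log2 change, with a median of 0.14, and 3 were called; the 7 include Atp6v0c, whose few counts are uncertain. In RNA 3 of the 7 were positive and 4 negative. Atp6v0e2, a small V0 subunit, rose from 182, 155 and 161 CPM in control to 194, 190.3 and 196 CPM in KO mice, a change of 0.23 ± 0.05 (SE, edgeR adjusted p = 4.07e-05), although control mouse 1 came close to the KO range. Atp6v0d1, which couples the turning V1 rotor to the V0 ring, rose from 473, 456 and 453 CPM to 529.9, 516 and 552 CPM, a change of 0.21 ± 0.03 (SE, edgeR adjusted p = 9.87e-09). Atp6v0b, a proton-carrying ring subunit, rose from 225, 226 and 215 CPM to 237, 246 and 244 CPM, a change of 0.13 ± 0.04 (SE, edgeR adjusted p = 0.0116) that was lost in 4 of 14 alternatives. Atp6v0a1, the V0 subunit of synaptic vesicles, was not called, with 977 ± 3.53 CPM in control and 1007 ± 6.90 in KO footprints (SD, n = 3, edgeR adjusted p = 0.179), although the libraries did not overlap.

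Of the V1 subunits, 4 rose and 2 fell among 10 tested. Atp6v1h, a regulatory subunit that brakes free V1, rose from 464, 457 and 439 CPM in control to 509, 533 and 520.4 CPM in KO footprints, a log2 change of 0.20 ± 0.03 (SE, edgeR adjusted p = 4.77e-08). Atp6v1e1, part of the outer stalks, rose from 879, 902 and 857 CPM to 978, 957 and 941 CPM, a change of 0.12 ± 0.02 (SE, edgeR adjusted p = 3.94e-05). Atp6v1c1, which joins stalks to V0, rose from 390.0, 387 and 374 CPM to 417, 407 and 413 CPM, a change of 0.10 ± 0.03 (SE, edgeR adjusted p = 0.00891). Atp6v1b2, the B subunit of brain, rose from 1307, 1331 and 1305 CPM to 1367, 1384 and 1353 CPM, a change of 0.06 ± 0.02 (SE, edgeR adjusted p = 0.0453) that held under 4 of 14 alternatives.

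Atp6v1a and Atp6v1g2 were the V1 subunits called lower. Atp6v1a, the catalytic subunit that binds ATP together with the B subunit, fell from 1003, 946 and 989 CPM to 928, 940.0 and 908 CPM in footprints, a log2 change of -0.08 ± 0.02 (SE, edgeR adjusted p = 0.00919), and 5 of 14 alternatives lost this call (on plain library sizes -0.02, edgeR adjusted p = 0.57). Its RNA was 737, 714, 697 and 622 CPM in control and 601, 597, 672 and 606 CPM in KO mice, overlapping through control mouse 8 and KO mouse 5 (edgeR adjusted p = 0.131). Atp6v1g2, the stalk subunit enriched in neurons, had 469, 517 and 516 CPM in control and 437, 454 and 473 CPM in KO footprints, a change of -0.14 ± 0.03 (SE, edgeR adjusted p = 0.000273), with control mouse 1 below KO mouse 10. In RefSeq Atp6v1g2 overlaps Nfkbil1 and Atp6v1b2 overlaps Slc18a1, and the same limit on strand applies to their counts.

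The accessory subunits split as well. Atp6ap1 (Ac45), which helps V0 assemble, rose in footprints from 656, 637 and 636 CPM to 799.5, 816 and 807 CPM, a log2 change of 0.33 ± 0.03 (SE, edgeR adjusted p = 1.3e-19). Its RNA was 341, 326, 387 and 417 CPM in control and 423, 424, 425 and 431 CPM in KO mice, which did not overlap, yet the change of 0.21 ± 0.07 did not pass (SE, edgeR adjusted p = 0.0806). Atp6ap2, the prorenin receptor, fell from 533, 516 and 517 CPM to 492, 492 and 484 CPM, a change of -0.09 ± 0.03 (SE, edgeR adjusted p = 0.0151), and 6 of 14 alternatives lost this call (on plain library sizes -0.03, edgeR adjusted p = 0.477). Both genes are on the X chromosome.

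Many V-ATPase genes are textbook targets of the lysosomal regulator TFEB, whose CLEAR element has the E-box CACGTG at its centre, so the bases before each start site were searched for it. RefSeq promoters (GRCm38.p6) were matched for 43 members. CACGTG, which reads the same on both strands, occurred within 250 bases before the start in 2 of 18 V-ATPase members, 2 of 25 other members and 6.86% of all 27025 genes in that table. The members with the motif and a footprint call are shown because they did not move one way: Atp6v0b and Atp1b3 rose and Atp6v1a fell. Windows are in the gene's direction, all on the minus strand, with the motif in capitals; they lie at chr4:117887330-117887395 for Atp6v0b, chr16:44139355-44139420 for Atp6v1a and, for 1 of its start sites, chr9:96363901-96363965 for Atp1b3.
Atp6v0b: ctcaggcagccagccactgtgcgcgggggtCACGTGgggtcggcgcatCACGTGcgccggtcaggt
Atp6v1a: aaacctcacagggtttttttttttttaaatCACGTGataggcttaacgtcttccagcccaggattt
Atp1b3: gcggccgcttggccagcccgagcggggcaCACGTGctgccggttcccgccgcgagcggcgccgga
Atp6v0b held the motif at 36 and again at 18 bases before the start, Atp6v1a at 131 and Atp1b3 at 221. A match is a description of these letters and not of a bound factor.

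In RNA, 4 of 53 tested members were called, 1 higher and 3 lower, a share close to that of all 13507 genes tested, where 7.41% were called, 3.53% higher and 3.88% lower. The calls besides Atp2b4 were Atp6v1c2, Atp10b and Atp10d, each with few counts. Atp6v1c2, the minor C subunit of the V-ATPase, had 3.63, 4.04, 3.65 and 3.51 CPM in control mice 1, 3, 6 and 8 and 2.44, 1.92, 2.56 and 1.58 CPM in KO mice 2, 4, 5 and 7, a log2 change of -0.81 ± 0.19 (SE, edgeR adjusted p = 0.0217). Atp10b, a flippase of late endosomes and lysosomes, fell from 12.3, 10.3, 13.5 and 11.3 CPM to 8.11, 9.24, 8.37 and 9.40 CPM, a change of -0.43 ± 0.12 (SE, edgeR adjusted p = 0.0396). Atp10d rose from 4.44, 4.77, 3.76 and 4.10 CPM to 7.33, 6.62, 5.0 and 6.33 CPM, a change of 0.57 ± 0.16 (SE, edgeR adjusted p = 0.0377), and RefSeq lists it as a transcribed pseudogene in this assembly. Genotypes did not overlap in these 3 genes or, over all tested members, in 10 of 53, against 15.1% of all genes tested. Atp6v1c2 shares its locus with the gene Pdia6 in RefSeq.

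With the title prefix as a replicate block 4 members were called, 2 higher and 2 lower: Atp10b was lost at -0.42 (edgeR adjusted p = 0.0567) and Atp11b gained at 0.34 (edgeR adjusted p = 0.0192). That fit called 7.09% of all genes tested. The number of RNA calls turned on single libraries. Leaving out mouse 1, 4, 6 or 7 gave 0 called members, with 14 to 18 at an unadjusted edgeR p under 0.05, leaving out mouse 2 gave 1, mouse 3 gave 2, mouse 5 gave 7 and mouse 8 gave 9. Calls over all genes moved too, from 356 without mouse 4 to 1469 without mouse 5 and 1763 without mouse 8. With the close libraries of KO mice 2, 4 and 7 summed to 1, edgeR called 0 members, with 14 at an unadjusted p under 0.05, and 0.579% of all genes tested. DESeq2 on all 8 libraries called 6 members and 8.47% of all genes tested. KO mouse 5 stood apart in many pump genes: Atp1b1 RNA was 1017, 1032 and 1038 CPM in KO mice 2, 4 and 7 and 1350.1 in mouse 5, and Atp2b2 RNA was 1442, 1435 and 1435 CPM against 1662. The same library stood apart from the other KO mice in summed RNA of markers, with 121 CPM for choroid plexus against 7.06 to 11.2, 104 for endothelium against 176 to 180.0 and 4737 for astrocytes against 3927 to 3941. Control mouse 8 had 283 CPM of choroid plexus markers, against 10.4 to 21.0 in the other controls. Their part in the RNA results was not tested. In KO mouse 5 members held 2.14% of RNA counts, the highest share, against 1.88 to 1.95% in the other RNA libraries.

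**Figure D3:**
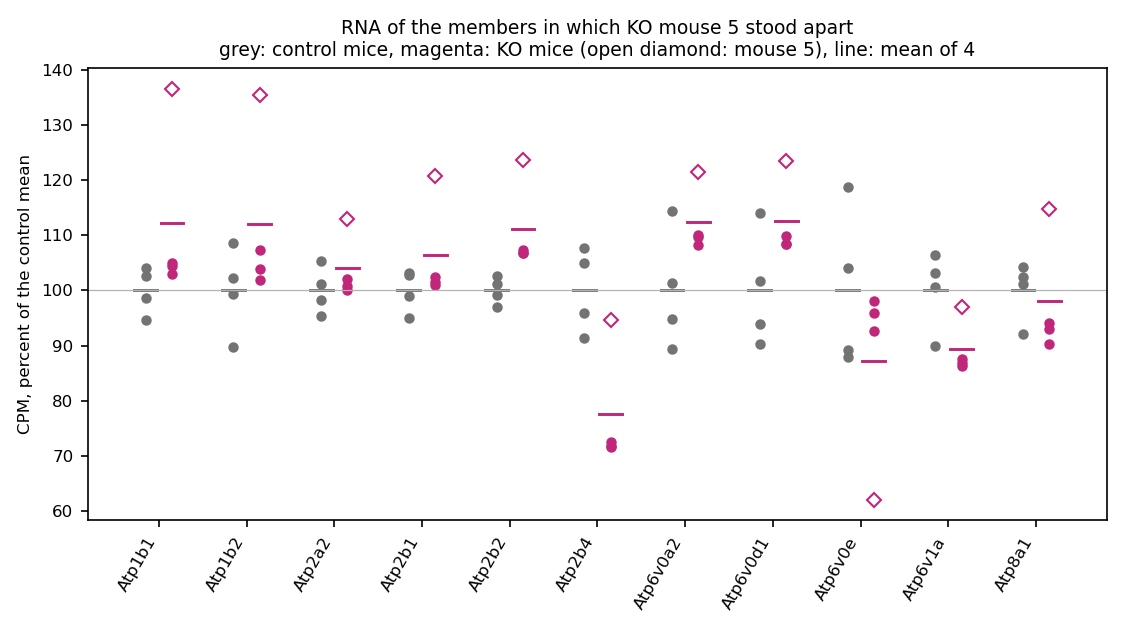
RNA CPM of the 11 members in which KO mouse 5 lay apart from the other KO mice are plotted in each library as a percentage of the gene's control mean. Grey points are the 4 control mice, magenta points the 4 KO mice, open diamonds mouse 5 and lines the means. The diamond is the highest KO value in 10 members and the lowest in Atp6v0e.

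RNA medians of the machines lay opposite to their footprint medians. In RNA, P-type members had a positive log2 change in 23 of 33 and a median of 0.10, and V-ATPase members a negative one in 15 of 20 and a median of -0.09, with a median of 0.00 over all genes tested. Of the 47 members tested in both assays, 13 P-type members were up in RNA and down in footprints and 0 the reverse. A further 7 were up in both assays and 7 down in both. Of V-ATPase members, 10 were down in RNA and up in footprints, Atp6v0c with its uncertain counts among them, and 0 the reverse. A further 5 were up in both and 5 down in both. These counts were not set against the share of all genes with opposite signs. Neither these counts nor the medians carry a test. The RNA calls of P-type members, 1 higher and 2 lower, did not follow their positive median. RNA calls among V-ATPase members did not follow their median under some alternatives: DESeq2 called 2 higher and 1 lower, the exon columns 2 higher and 1 lower, and the fit without mouse 8 called 4 higher and 2 lower. Across the alternatives run, the median of P-type members stayed between 0.06 and 0.11 in RNA and between -0.08 and -0.01 in footprints, and that of V-ATPase members between -0.11 and -0.07 in RNA and between 0.07 and 0.15 in footprints.

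**Figure D4:**
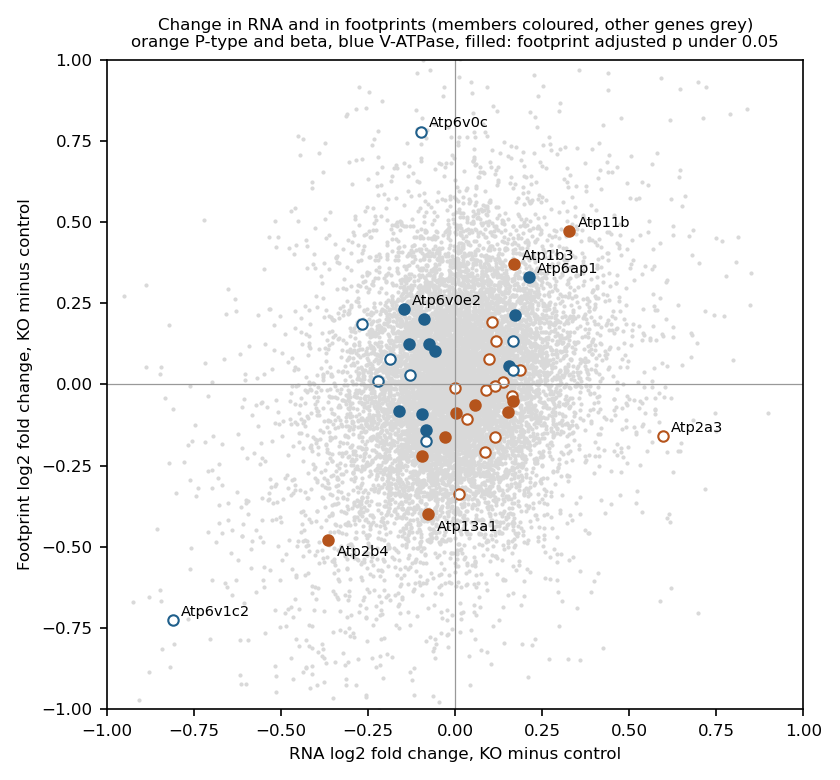
The footprint log2 fold change of KO minus control is plotted on the y axis against the RNA log2 fold change on the x axis, for members (orange P-type and beta subunits, blue V-ATPase, filled when called in footprints) and for other genes tested in both assays (grey, those beyond 1 on either axis outside the frame). The lower right part holds 12 P-type members and the upper left part 10 V-ATPase members, including Atp6v0c, whose values are uncertain.

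Translational efficiency sets footprints against RNA and was tested as an interaction of genotype and assay over all 14 libraries, which ties it to both sets of values above. Of 47 members, 3 were called, 2 higher and 1 lower, near the 7.81% called among all 12145 genes tested, with 3.40% higher and 4.41% lower. On plain library sizes 6 were called, all higher, and over all genes 739 were higher and 345 lower. Atp6v0e2 had a TE change of 0.36 ± 0.10 (SE, edgeR adjusted p = 0.0297), with RNA of 78.7, 80.8, 87.5 and 93.5 CPM in control and 78.5, 79.1, 68.4 and 81.1 CPM in KO mice. In the exon columns its RNA was 304, 283, 351 and 388 CPM in control and 344, 335, 328 and 339 CPM in KO mice, a change of 0.02 ± 0.08 (SE, edgeR adjusted p = 0.904), and the TE call held in 10 of 19 alternatives. Atp6v0b had a TE change of 0.25 ± 0.07 (SE, edgeR adjusted p = 0.031), with RNA of 242, 245, 258 and 261 CPM in control and 222, 222, 243 and 229.9 CPM in KO mice, and this call held in 11 of 19 alternatives. Atp2b2 had a TE change of -0.24 ± 0.07 (SE, edgeR adjusted p = 0.0303), with RNA of 1379, 1305, 1334 and 1359 CPM in control and 1442, 1435, 1662 and 1435 CPM in KO mice. The Atp2b2 call held in 10 of 19 alternatives. The RNA ranges overlapped for the V0 genes and not for Atp2b2. Atp13a1 missed the threshold at -0.33 ± 0.10 (SE, edgeR adjusted p = 0.0502). TE was negative in 23 of 27 P-type members, with a median of -0.13, and positive in 14 of 20 V-ATPase members, with a median of 0.13, beside -0.01 over all genes tested. Across alternatives the TE median ran from -0.19 to -0.07 for P-type members and from 0.09 to 0.20 for V-ATPase members. Relative to the median of all genes these were -0.18 to -0.05 and 0.10 to 0.18.

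Mice 1 to 4 gave libraries to both assays, and with the mouse as a replicate block, which uses those 4 animals, 9 members were called in TE, while calls over all genes rose to 15.3%. The 3 called lower included Atp1b1 and Atp2b2, and the 6 called higher were Atp6v0b, Atp6v1a, Atp6v1c1, Atp6v1d, Atp6v1e1 and Atp6v1h, so 2 of the 3 calls were shared. Atp6v1h had the strongest of these, at 0.42 ± 0.06 (SE, edgeR adjusted p = 5.16e-10), and Atp6v0e2 was lost at 0.20 ± 0.09 (SE, edgeR adjusted p = 0.114). DESeq2 on all libraries called 5 members in TE and 8.3% of all genes tested. Leaving out mouse 2, 4, 6, 9 or 10 gave 0 called members in TE, with 8 to 12 at an unadjusted edgeR p under 0.05. Leaving out mouse 3 gave 1, mouse 5 gave 8 and mouse 8 gave 6. Over all genes these fits called between 419 genes, without mouse 2, and 1289, without mouse 5.

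In control mice the number of footprints per unit of RNA differed widely between families. This ratio of mean footprint CPM to mean RNA CPM compares a gene's counts in the same deposited kind of column, and all genes tested had a median of 0.913, with 90% between 0.269 and 2.21. Beta subunits differed: Atp1b1 had a ratio of 3.36, with 3.37 in mouse 1 and 3.55 in mouse 3, and Atp1b2 had 2.77, but Atp1b3 had 0.587, below the median of all genes. V-ATPase members had a median of 1.39, led by Atp6v1g2 at 3.68 and Atp6v0d1 at 2.21. Flippases had a median of 0.459 and only 1 of 8 above the median of all genes, with Atp8b2 at 0.156 and Atp11b at 0.229 lowest. These ratios carry no test.

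The ratio depends on what was counted. RNA had a second kind of column for exons, and the column used here held 14% of the exon count for Atp6v0e2, 31.1% for Atp6v1g2, 45.9% for Atp1b1 and 97.0% for Atp8a2 in control mice. Atp6v0c, the main ring subunit through which protons pass, could not be read. It had 961 to 2149 counts per RNA library in the columns used but 0 to 5 in the exon columns and 10 to 30 per footprint library, and its ratio of 0.017 was lower than that of all but 0.066% of genes. RefSeq holds 2 pseudogenes named after Atp6v0c. Whether its reads were shared with copies was not tested, and its values are uncertain.

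**Figure D5:**
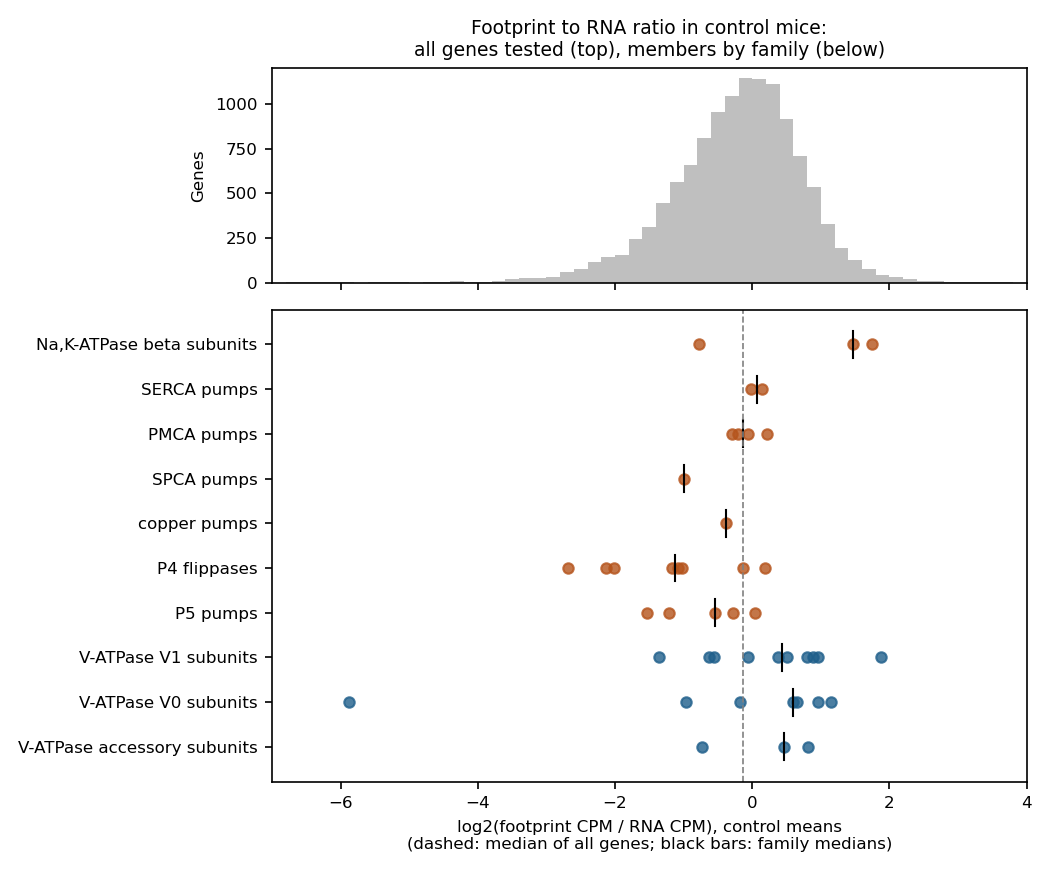
The log2 ratio of footprint CPM to RNA CPM in control mice is on the x axis, as a histogram of all 12145 genes tested (top) and as 1 point per member reported singly, by family (below). The dashed line is the median of all genes and black bars are family medians. Of the beta subunits, Atp1b1 and Atp1b2 lie to the right of the dashed line and Atp1b3 to the left; V-ATPase members lie mostly to the right of the dashed line, flippases mostly to the left, and Atp6v0c stands alone at the far left.

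Genes that work with these pumps but lie outside the naming rule were read from a list of 33, of which 22 could be tested in footprints and 23 in RNA. In footprints 6 rose and 4 fell, 45.5% of those tested, against 25.5% of all genes and 56.0% of genes at 100 CPM or more. Rnasek, a V-ATPase associated protein, rose from 213, 213 and 218 CPM to 287, 325 and 300.2 CPM, a log2 change of 0.50 ± 0.04 (SE, edgeR adjusted p = 6.17e-20), and in RNA from 41.2 ± 9.10 to 60.5 ± 7.56 CPM (SD, n = 4), a change of 0.56 ± 0.13 (SE, edgeR adjusted p = 0.0204). The RNA libraries of the genotypes overlapped for Rnasek. The copper importer Slc31a1 rose by 0.52 ± 0.12 and the copper chaperone Atox1 by 0.33 ± 0.09 in footprints (SE, edgeR adjusted p = 0.000352 and 0.00394), with libraries of the genotypes touching or overlapping in both. Nkain2, which binds the sodium-potassium pump, rose by 0.39 ± 0.13, and Nptn, a partner of PMCA pumps, by 0.08 ± 0.02 (SE, edgeR adjusted p = 0.0178 and 0.012).

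Partners that fell in footprints included the V-ATPase assembly factors Dmxl2, from 558 ± 15.1 to 474 ± 3.50 CPM, and Wdr7, from 435 ± 23.5 to 378 ± 16.2 CPM (SD, n = 3, edgeR adjusted p = 2.21e-10 and 1.4e-06). The a3 subunit Tcirg1, typical of osteoclasts and immune cells, fell by 0.65 on the log2 scale, from 12.1, 11.9 and 11.5 CPM to 6.42, 9.43 and 6.72 CPM (edgeR adjusted p = 0.00556). Fxyd6, a modulator of the sodium-potassium pump, fell from 124 ± 6.0 to 103 ± 5.19 CPM (SD, n = 3, edgeR adjusted p = 7.67e-05). Its relative Fxyd7 rose in RNA, from 29.9 ± 2.64 to 36.6 ± 2.81 CPM (SD, n = 4, edgeR adjusted p = 0.0484). In RNA 2 of 23 partners were called, Rnasek and Fxyd7, or 8.70% against 7.41% of all genes tested. Most partners went the other way in RNA, with 5 positive and 18 negative changes and a median of -0.06. In TE edgeR called 0 of 22 partners, with 4 at an unadjusted p under 0.05, and DESeq2 called 0. Plain library sizes gave 2, limma voom 3 and the mouse as a replicate block 5, where these fits called 8.93, 15.7 and 15.3% of all genes tested.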

How the data were processed

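Mouse cortex was measured by RNA-seq (8 libraries) and ribosome profiling (6 libraries). The authors deposited 1 table of whole-number counts per gene, without normalization. Per the submitters' processing notes, Bowtie2, STAR 2.5, featureCounts, Subread 1.4.6 and the builds mm9 and mm10 were used, with no role given. The region counted and the strand setting are not given in the sources used here. RNA columns without a suffix were used, the exon columns served as an alternative, and 2849 genes with values in the exon columns only were left out. Genotype and mouse number came from the labels.

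Counts were tested with edgeR 4.0.16 (R 4.3.3): TMM scaling, filterByExpr at a minimum count of 10, quasi-likelihood F tests, two-sided, Benjamini-Hochberg adjustment over all genes tested, a threshold of 0.05, and TE as the genotype by assay interaction. DESeq2 1.42.0, limma 3.58.1, other scalings, no filter, replicate blocks, summed close libraries and leaving out each mouse were alternatives. The tests were checked on simulated data. Members and lists were chosen with earlier results of these data known. Values per library are given for up to 10 called members with the largest rise and 10 with the largest fall per comparison at a mean of at least 1 CPM, and others for their role; Atp1b1, Atp2a2, Atp2b2, Atp9a and other smaller changes were added to complete the families. For 3 members no single values are reported here; they stay in the fits and in counts and medians over members. Levels per coding length, planned for comparing genes, could not be computed, so levels are compared within a gene only. Mice 1 to 4 pair the assays by animal: deviations from group means correlated across 12145 genes at 0.0031, 0.034, 0.011 and -0.013.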

Additional observations from a re-analysis of the deposited data

Results flagged for a closer look

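In 13 of 98 groups of 4 RNA libraries the highest or lowest mouse lay far from the other 3, by Dixon's gap ratio at its 95% critical value; chance flags about 5% of groups, and genes in 1 library are not independent. KO mouse 5 was the mouse in 11 of them. It was highest for Atp1b1 (1350.1 CPM, others 1017 to 1038), Atp1b2 (216), Atp2a2 (1929.6), Atp2b1 (1537), Atp2b2 (1662), Atp2b4 (394), Atp6v0a2 (56.2), Atp6v0d1 (258), Atp6v1a (672) and Atp8a1 (503), and lowest for Atp6v0e (5.70 CPM, others 8.50 to 9.0). Control mouse 1 was lowest for Atp8b1 (5.54 CPM), and control mouse 6 was highest for Atp6v1g2 (138 CPM, others 135).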

How the results depend on the processing

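The number of footprint calls was 19 to 24 under every alternative except 1 fit over all 14 libraries, which called 5 (and 13.8% of all genes). Leaving out each mouse gave 19 to 23 and the title prefix as a replicate block gave 24. Plain library sizes gave 13 higher and 6 lower in place of 10 and 14, moved the median of all genes from 0.01 to 0.06, and turned Atp1b1 to 0.0086; with BC048546, a gene of very unequal footprint counts, also left out (an alternative chosen after seeing the data) the split was 11 and 8. Atp13a1, Atp1b3, Atp2b3, Atp2b4 and Atp6ap1 kept their footprint call in all 14 alternatives. RNA calls went from 4 to 0 with KO mice 2, 4 and 7 summed, to 0 with control mice 1 and 3 summed as well, and to 0 in mice 5 to 8 only, where 0.579, 0.263 and 0.652% of all genes were called, and ranged from 0 to 9 with each mouse left out. TE calls went from 3 to 5 with DESeq2 (8.3% of all genes), 6 on plain library sizes (8.93%) and 1 with the title prefix as a replicate block (6.47%). They were 9 with the mouse as a replicate block (15.3%) and 10 with limma voom (15.7%), and ranged from 0 to 8 with each mouse left out. The cause was not tested. At this depth 17 members had too few footprint counts to be tested.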

Other observations

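Atp1a4, the alpha subunit known from testis, was listed with 0 to 4 counts per RNA library but had 5, 6 and 3 footprint counts in control mice 1, 3 and 9 and 6, 8 and 11 in KO mice 2, 4 and 10. These are too few to test, and close relatives of the same family could share reads. Footprints of Atp2c2 were 0 in all 3 KO libraries and 0.355 to 0.946 CPM in control libraries.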
